A study of Caenorhabditis elegans with 9 samples.

Results

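The 9 genes described here carry the DNA damage checkpoint and double-strand break repair in the germ line of the nematode Caenorhabditis elegans. They are atm-1 and atl-1, which encode the ATM and ATR kinases, hus-1 and mrt-2, which encode parts of the 9-1-1 checkpoint clamp, clk-2, the TEL2 homologue, brc-1 and brd-1, the BRCA1 and BARD1 homologues, brc-2, the BRCA2 homologue, and polq-1, which encodes DNA polymerase theta. They were found by symbol through their WormBase IDs, 9 of the 46245 genes of the deposited table. All 9 passed the filter of a mean of at least 1 FPKM (sequenced fragments per kilobase of a transcript and per 1000000 fragments mapped), as 8572 genes did.

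RNA was sequenced from germ lines extruded on day 6 of adulthood, in 9 libraries of 3 groups of 3. The EV 20C group came from worms fed bacteria with an empty RNAi vector (EV) at 20°C, the iff-1 RNAi 15C group from worms fed bacteria against iff-1 at 15°C, and the EV 15C group from worms on the empty vector at 15°C. The gene iff-1 encodes an eIF5A, a translation factor, and it is known to be needed for germ cell proliferation. All worms were raised on OP50 bacteria until adulthood and only then moved to their temperature and RNAi food, so every group also received RNAi bacteria. The series title calls the worms wild type, and the labels name no strain. RNAi was given to whole worms, so tissues outside the germ line were exposed too. The labels do not say how many germ lines a library pooled, nor whether replicates were separate cultures. The p-values therefore reflect spread among these libraries alone, which may be technical.

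Double-strand breaks arise in every meiotic germ cell and are repaired largely through homologous recombination. ATM responds chiefly to broken ends, whereas ATR responds to single-stranded DNA coated with replication protein A. ATR signalling needs the 9-1-1 clamp, a ring of HUS1, RAD1 and RAD9 that RAD17 loads beside the damage. The BRCA1–BARD1 dimer is a ubiquitin ligase that promotes recombination, BRCA2 acts in recombination at the resected strand, and polymerase theta joins ends through short stretches of matching bases when recombination does not.

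The RNAi target was at 104, 58.0 and 37.4 FPKM in the iff-1 RNAi 15C libraries and at 2665, 2442 and 2479 FPKM in EV 20C, against 2677, 2653 and 2510 FPKM in EV 15C. Its mean under RNAi was 97.5% lower than in EV 15C (log2 fold change -5.40, SE 0.29, limma adjusted p = 5.5e-05). Depth was estimated, from a fixed window of low values, at 34.0 to 39.5 per library in units of 1000000 fragments. If that depth holds, each of the 9 genes had 1182 to 8272 fragments per library, a counting error of 1.10% to 2.91%. All 8 germ line markers reached 1 FPKM, with sums of 2849 to 2919 FPKM in EV 20C, 2647 to 2719 FPKM in iff-1 RNAi 15C and 2698 to 2742 FPKM in EV 15C. Single markers differed in direction between groups. In that order of groups, nos-2 had 196 to 200, 109 to 114 and 122 to 131 FPKM. The values were 801 to 818, 905 to 971 and 800 to 808 FPKM for gld-1. For glh-1 they were 239 to 250, 228 to 247 and 304 to 327 FPKM. Of 6 sperm genes 1 reached 1 FPKM, the sex determination gene fog-3, and msp-142, msp-19 and ssp-19 were listed at 0 throughout. The sperm sum was 2.72 to 3.71 FPKM in EV 20C, 15.9 to 25.14 FPKM in iff-1 RNAi 15C and 4.94 to 7.82 FPKM in EV 15C. Muscle genes, 6 of 8 at 1 FPKM or more, summed to 59.9 to 98.8 FPKM in EV 20C, 74.5 to 98.1 FPKM in iff-1 RNAi 15C and 112 to 131 FPKM in EV 15C. Sums for 8 intestinal genes, 5 at 1 FPKM or more, overlapped between all groups, at 51.1 to 125 FPKM in EV 20C, 86.1 to 246 FPKM in iff-1 RNAi 15C and 69.8 to 236 FPKM in EV 15C. Neuronal genes, 3 of 6 at 1 FPKM or more, summed to 243 to 253 FPKM in EV 20C, 216 to 223 FPKM in iff-1 RNAi 15C and 205 to 209 FPKM in EV 15C, most of it from snb-1, and rab-3, unc-13 and snt-1 averaged under 1 FPKM. Cuticle genes, 3 of 6, summed to 4.14 to 10.4 FPKM in EV 20C, 10.98 to 24.4 FPKM in iff-1 RNAi 15C and 11.6 to 21.5 FPKM in EV 15C. Somatic gonad genes, 2 of 5, summed to 3.72 to 6.86 FPKM in EV 20C, 5.02 to 6.12 FPKM in iff-1 RNAi 15C and 4.58 to 5.18 FPKM in EV 15C. The part of these tissues in the results was not tested.

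All 9 genes were expressed in every library at moderate levels, between the 33.4 and 58.1 percentile of the tested genes. FPKM is a level per transcript length. Whether other differences in coverage between genes were corrected is not stated, so the order of levels between genes is approximate. The longest genes, atl-1, atm-1 and polq-1, had the lowest mean levels in every group. In EV 20C the order of mean levels was brc-2, hus-1, brc-1, clk-2, brd-1, mrt-2, polq-1, atl-1 and atm-1, and neighbours overlapped only for clk-2 and brd-1. In iff-1 RNAi 15C it was hus-1, brc-2, clk-2, brc-1, brd-1, mrt-2, atl-1, polq-1 and atm-1, with overlaps between brc-2 and clk-2, brc-1 and brd-1, and atl-1 and polq-1. In EV 15C it was hus-1, brc-2, clk-2, brc-1, brd-1, mrt-2, polq-1, atl-1 and atm-1, with an overlap between hus-1 and brc-2. The kinase atm-1 had the lowest level of the 9 in every group, and hus-1 and brc-2 held the 2 highest mean levels in every group.

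**Figure D1:**
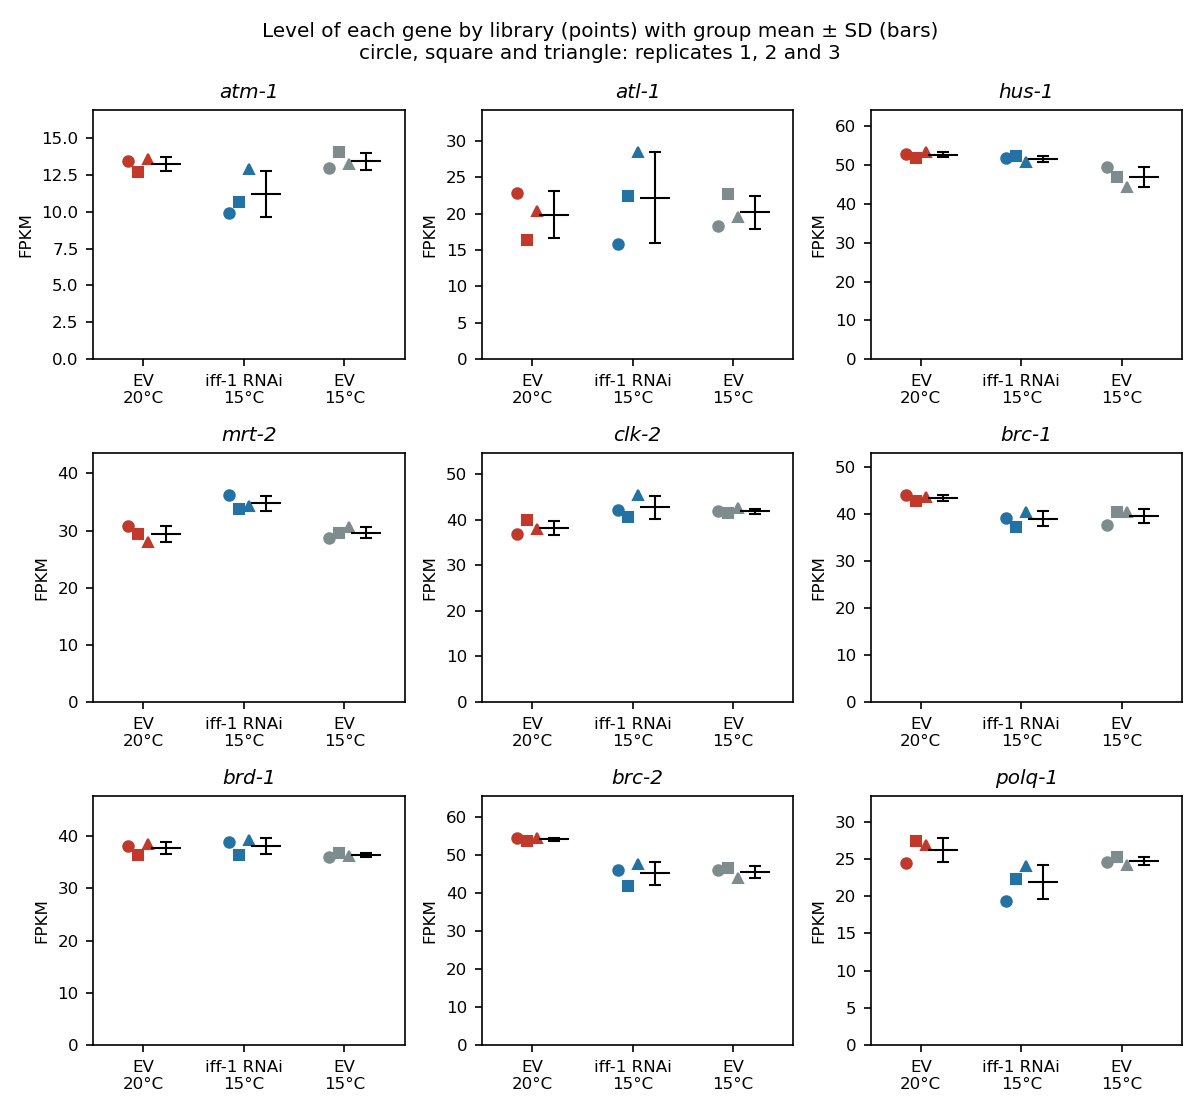
FPKM of each of the 9 genes (y axis, from 0) in the 3 libraries of EV 20C, iff-1 RNAi 15C and EV 15C (x axis). Points are libraries, with replicates 1, 2 and 3 as circle, square and triangle, and bars are the mean ± SD. The EV 20C libraries of brc-2 (53.7 to 54.4 FPKM) and the iff-1 RNAi 15C libraries of mrt-2 (33.7 to 36.3 FPKM) stand above both other groups.

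At 20°C, brc-2 and hus-1 were higher than at 15°C. Changes were tested with limma on log2(FPKM + 1) across all 8572 genes, and those with an adjusted p (Benjamini-Hochberg) under 0.05 were called. Of the 9 genes 2 were called, both higher, while 28.0% of all tested genes were called, 19.3% higher and 8.69% lower. Under median ratio scaling and under quantile normalization the 2 called genes were brc-2, higher, and clk-2, lower, and over all tested genes 1228 were higher and 1041 lower under the one and 1261 and 1021 under the other, against 1656 and 745 without scaling. At an unadjusted limma p under 0.05, 3 of the 9 were higher and 1 was lower, against 2326 and 1249 of all 8572 tested genes. The groups did not overlap for 4 of the 9 genes, hus-1, clk-2, brc-1 and brc-2, against 45.4% of all tested genes. The median log2 fold change of the 9 was 0.05, against 0.03 over all tested genes, and the median size of change was 0.08, against 0.14. In bulk RNA such as this, fewer cells of a type and less RNA per cell cannot be told apart.

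Under iff-1 RNAi at 15°C, mrt-2 and hus-1 were higher than in EV 15C. These were the 2 of 9 genes called, both higher, while 31.0% of all tested genes were called, 16.0% higher and 15.0% lower. At an unadjusted limma p under 0.05, 2 of the 9 were higher and 1 was lower, against 1930 and 1745 of all 8572 tested genes. The groups did not overlap for 4 of the 9, atm-1, hus-1, mrt-2 and polq-1, against 49.7% of all tested genes. The median log2 fold change was 0.03 for the 9 and 0.01 for all tested genes, and the median size of change 0.10 and 0.15. Both comparisons use the same EV 15C libraries, so a low or high EV 15C library moves both.

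The iff-1 RNAi 15C and EV 20C groups differ in temperature and in RNAi at once, and their contrast equals the difference between the 2 effects above. Of the 9 genes 5 were called, while 48.9% of all tested genes were called. Levels of mrt-2 and clk-2 were higher under iff-1 RNAi at 15°C than in EV 20C, and those of brc-1, brc-2 and polq-1 were lower, against 20.5% of all tested genes called higher and 28.4% lower. The groups did not overlap for those 5 genes, against 56.5% of all tested genes. The median log2 fold change was -0.03 for the 9 and -0.02 for all tested genes, and the median size of change 0.16 and 0.21.

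**Figure D2:**
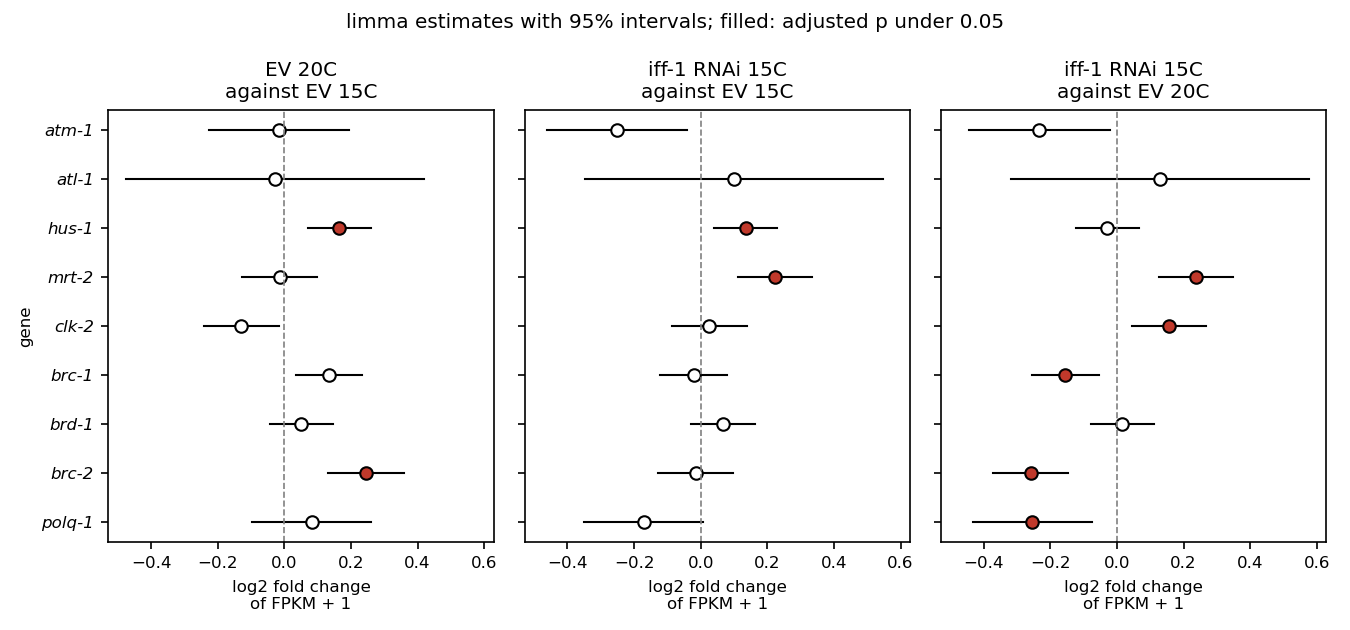
Limma log2 fold change of FPKM + 1 (x axis) of each of the 9 genes (y axis) in 3 comparisons, with 95% intervals as lines and 3 libraries per group. Filled points passed an adjusted p of 0.05: brc-2 and hus-1 for EV 20C against EV 15C, hus-1 and mrt-2 for iff-1 RNAi 15C against EV 15C, and 5 genes for iff-1 RNAi 15C against EV 20C.

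The kinase genes are described first. The gene atm-1 (WBGene00000227) lies on chromosome I, at 183364 to 208384 on the plus strand of WBcel235. It had 13.5, 12.7 and 13.6 FPKM in EV 20C, 9.94, 10.7 and 12.9 FPKM in iff-1 RNAi 15C, and 12.95, 14.1 and 13.2 FPKM in EV 15C. All iff-1 RNAi 15C libraries were below all EV 15C libraries, replicate 3 by little, and the EV 20C libraries overlapped those of EV 15C, with replicate 2 below them all. The change under iff-1 RNAi did not pass, at -0.25 (SE 0.09, 95% interval -0.46 to -0.04, adjusted p = 0.0713). Without iff-1 RNAi 15C replicate 3 the log2 fold change was -0.35 and passed (adjusted p = 0.0108). With library medians by transcript length removed, an alternative added after the data were seen, it was -0.16 (adjusted p = 0.162). At 20°C the change was -0.02 (95% interval -0.23 to 0.19, adjusted p = 0.908). Against EV 20C the change under iff-1 RNAi was -0.23 (adjusted p = 0.0655), and it passed without iff-1 RNAi 15C replicate 3 (adjusted p = 0.00796) and with scaling that leaves out the 10 highest genes (adjusted p = 0.0313).

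The gene atl-1 (WBGene00000226, chromosome V, 9634849 to 9645595, minus strand) varied more between replicates than any other of the 9 in every group. It had 22.8, 16.4 and 20.4 FPKM in EV 20C, 15.8, 22.4 and 28.4 FPKM in iff-1 RNAi 15C, and 18.3, 22.7 and 19.5 FPKM in EV 15C. The lowest and the highest of the 9 libraries were both in the iff-1 RNAi group, so its range covered both other groups. Log2 fold changes were -0.03 at 20°C (95% interval -0.48 to 0.42, adjusted p = 0.932) and 0.10 under iff-1 RNAi (95% interval -0.35 to 0.55, adjusted p = 0.734). Changes anywhere within those intervals are compatible with these libraries, and the bounds are not a limit of detection.

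The clamp genes follow. For hus-1 (WBGene00002042, chromosome I, 3698102 to 3699300, plus strand), the libraries had 52.9, 51.9 and 53.3 FPKM in EV 20C, 51.9, 52.2 and 50.8 FPKM in iff-1 RNAi 15C, and 49.5, 46.9 and 44.5 FPKM in EV 15C. Every library of either EV 20C or iff-1 RNAi 15C was above every EV 15C library. At 20°C the mean was 52.7 ± 0.700 FPKM, against 47.0 ± 2.53 FPKM at 15°C (SD, n = 3 each), which is 12.2% higher (log2 0.16, SE 0.04, adjusted p = 0.0197). That call was lost without replicate 3 of EV 20C (adjusted p = 0.0687) and replicates 2 (0.0587) or 3 (0.0543) of EV 15C, as well as under median ratio scaling (0.0608) and quantile normalization (0.0704). Under iff-1 RNAi the mean was 51.6 ± 0.767 FPKM, 9.93% higher than in EV 15C (log2 0.14, SE 0.04, adjusted p = 0.0378). This call held in 7 of the 20 alternatives. Among single libraries it was lost without EV 20C replicate 3 (adjusted p = 0.0593), iff-1 RNAi 15C replicate 1 (0.0958), 2 (0.105) or 3 (0.0515), and EV 15C replicate 2 (0.0940) or 3 (0.111).

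The other clamp gene, mrt-2 (WBGene00003417, chromosome III, 11746766 to 11750175, plus strand), encodes the RAD1 homologue, and worms without it lose telomere repeats over generations. It had 30.7, 29.3 and 28.1 FPKM in EV 20C, 36.3, 33.7 and 34.3 FPKM in iff-1 RNAi 15C, and 28.7, 29.6 and 30.6 FPKM in EV 15C. The 3 iff-1 RNAi 15C libraries were the highest of the 9, and the EV 20C and EV 15C libraries overlapped. The mean was 34.8 ± 1.32 FPKM under iff-1 RNAi, against 29.6 ± 0.917 FPKM in EV 15C (SD, n = 3 each), or 17.3% higher (log2 0.22, SE 0.05, 95% interval 0.11 to 0.34, adjusted p = 0.0101). At 20°C the log2 fold change was -0.01 (95% interval -0.13 to 0.10, adjusted p = 0.860). The difference between the effects was 0.24 (SE 0.05, adjusted p = 0.0044), and both mrt-2 calls held in all 20 alternatives.

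The ratio of mrt-2 to hus-1 within a library, both measured per length, was 0.674 ± 0.0268 in iff-1 RNAi 15C and 0.557 ± 0.0280 in EV 20C, without overlap, and 0.633 ± 0.0536 in EV 15C, which overlapped both (SD, n = 3 each). For the third clamp gene, hpr-9, the RAD9 homologue, the ratio to hus-1 was 0.505 ± 0.0315 in EV 20C, 0.545 ± 0.0232 in iff-1 RNAi 15C and 0.561 ± 0.0326 in EV 15C, with overlaps between all groups. How many other gene pairs have ratios without overlap was not computed. Ratios were computed for 8 gene pairs, chosen with their values known, in 3 comparisons. An exact two-sided permutation test of 3 against 3 libraries can give no p below 0.1, and over these 24 tests the smallest adjusted p was 0.24, so none could pass.

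The gene clk-2 (WBGene00000537, chromosome III, 7515222 to 7518524, minus strand) encodes a homologue of TEL2, which stabilises kinases of the ATM and ATR family. It had 36.8, 39.9 and 37.96 FPKM in EV 20C, 42.0, 40.7 and 45.5 FPKM in iff-1 RNAi 15C, and 41.8, 41.4 and 42.5 FPKM in EV 15C. All 3 EV 20C libraries were the lowest of the 9. The change at 20°C was -0.13 (SE 0.05, 95% interval -0.24 to -0.02) and did not pass (adjusted p = 0.0809). It passed under median ratio scaling (adjusted p = 0.0201), quantile normalization (0.0116), removal of length medians (0.0221) and without iff-1 RNAi 15C replicate 3 (0.04498). Under iff-1 RNAi the change was 0.03 (adjusted p = 0.718). Set against EV 20C, iff-1 RNAi 15C differed by 0.16 (SE 0.05, adjusted p = 0.0279). That call was lost without EV 20C replicate 1 (adjusted p = 0.0753) or 3 (0.0787), iff-1 RNAi 15C replicate 1 (0.0519) or 3 (0.0727), when the 2 groups were fitted alone (0.0682) and with scaling that leaves out the 10 highest genes (0.194).

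The BRCA1–BARD1 genes were measured at similar levels. For brc-1 (WBGene00000264, chromosome III, 3853102 to 3862968, minus strand), the values were 44.1, 42.8 and 43.5 FPKM in EV 20C, 39.2, 37.3 and 40.4 FPKM in iff-1 RNAi 15C, and 37.7, 40.5 and 40.5 FPKM in EV 15C. The 3 EV 20C libraries were the highest of the 9, and the groups at 15°C overlapped. At 20°C the change was 0.13 (SE 0.04, 95% interval 0.03 to 0.23) and did not pass (adjusted p = 0.0512). It passed with a pseudocount of 0.1 (adjusted p = 0.0496), a minimum mean of 5 FPKM (0.0429), scaling without the 10 highest genes (0.0334) and without iff-1 RNAi 15C replicate 3 (0.0467). The change under iff-1 RNAi was -0.02 (adjusted p = 0.749). In iff-1 RNAi 15C against EV 20C it was -0.15 (SE 0.04, adjusted p = 0.0178), which was lost without EV 20C replicate 3 (adjusted p = 0.0531) or iff-1 RNAi 15C replicate 2 (0.0654), under quantile normalization (0.135) and with length medians removed (0.0724).

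Its partner brd-1 (WBGene00000265, chromosome III, 6885207 to 6889504, minus strand) was not called in any comparison. It had 38.1, 36.4 and 38.6 FPKM in EV 20C, 38.8, 36.4 and 39.3 FPKM in iff-1 RNAi 15C, and 36.1, 36.8 and 36.1 FPKM in EV 15C. All groups overlapped, with log2 fold changes of 0.05 at 20°C (adjusted p = 0.386) and 0.07 under iff-1 RNAi (adjusted p = 0.254). The ratio of brc-1 to brd-1 was 1.15 ± 0.0240 in EV 20C, 1.02 ± 0.0117 in iff-1 RNAi 15C and 1.09 ± 0.0379 in EV 15C (SD, n = 3 each). No pair of groups overlapped in that ratio, for which the exact permutation test gave p = 0.1 in each comparison (adjusted p = 0.24).

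The gene brc-2 (WBGene00020316, chromosome III, 6900568 to 6903106, minus strand) had the smallest adjusted p of the 9 at 20°C. Its values were 54.4, 53.7 and 54.4 FPKM in EV 20C, 45.9, 41.9 and 47.6 FPKM in iff-1 RNAi 15C, and 46.1, 46.7 and 43.9 FPKM in EV 15C. The EV 20C libraries lay close together and above all 6 libraries at 15°C, whose groups overlapped. The mean was 54.2 ± 0.432 FPKM at 20°C, against 45.5 ± 1.48 FPKM at 15°C (SD, n = 3 each), or 18.9% higher (log2 0.25, SE 0.05, 95% interval 0.13 to 0.36, adjusted p = 0.0083). Under iff-1 RNAi the change was -0.01 (adjusted p = 0.855). The difference between the effects was -0.26 (SE 0.05, adjusted p = 0.0029), and both brc-2 calls held in all 20 alternatives.

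The gene polq-1 (WBGene00020964, chromosome III, 5791119 to 5803160, minus strand) had 24.4, 27.5 and 26.9 FPKM in EV 20C, 19.4, 22.3 and 24.0 FPKM in iff-1 RNAi 15C, and 24.6, 25.3 and 24.2 FPKM in EV 15C. The 3 iff-1 RNAi 15C libraries were the lowest of the 9, and EV 20C overlapped EV 15C. Log2 fold changes were 0.08 at 20°C (adjusted p = 0.461) and -0.17 under iff-1 RNAi (SE 0.08, 95% interval -0.35 to 0.01, adjusted p = 0.130). Between iff-1 RNAi 15C and EV 20C the change was -0.25 (SE 0.08, adjusted p = 0.0259). That call was lost without EV 20C replicate 2 (adjusted p = 0.0777) or 3 (0.0829), iff-1 RNAi 15C replicate 1 (0.0714) or 2 (0.0549), when the 2 groups were fitted alone (0.0653) and under quantile normalization (0.0703). The ratio of polq-1 to brc-2 was 0.485 ± 0.0326 in EV 20C and 0.487 ± 0.0572 in iff-1 RNAi 15C, against 0.543 ± 0.00884 in EV 15C (SD, n = 3 each). Neither of the first 2 groups overlapped EV 15C (exact permutation p = 0.1, adjusted p = 0.24). The highest iff-1 RNAi 15C ratio, 0.533, lay just under the lowest EV 15C ratio, 0.534. This pair too was chosen with values known, and the share of other gene pairs without overlap was not computed.

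Within groups, the median coefficient of variation of the 9 genes was 3.67% in EV 20C, 5.81% in iff-1 RNAi 15C and 3.25% in EV 15C, against 6.43% in EV 20C, 5.57% in iff-1 RNAi 15C and 4.49% in EV 15C over all tested genes. Spread was wide for atl-1, at 16.3% in EV 20C, 28.3% in iff-1 RNAi 15C and 11.03% in EV 15C, and narrow for brc-2 in EV 20C, at 0.797%. In the iff-1 RNAi 15C group the 3 longest genes, atl-1 (7769 nt of exon), atm-1 (7581 nt) and polq-1 (5090 nt), had the 3 widest spreads, at 28.3%, 13.9% and 10.6%. Replicate 1 was the lowest and replicate 3 the highest of that group for each of them. Over all 246 tested protein-coding genes of at least 5000 nt, median centred log2 levels were -0.08, 0.06 and 0.06 in EV 20C, -0.13, -0.07 and 0.03 in iff-1 RNAi 15C, and 0.01, 0.06 and 0.05 in EV 15C. In iff-1 RNAi 15C the class of long transcripts was lowest in replicate 1 and highest in replicate 3, as these 3 genes were. The class medians ran from -0.13 to 0.03 in log2 there. In the same libraries atl-1 ran from 15.8 to 28.4 FPKM, atm-1 from 9.94 to 12.9 FPKM and polq-1 from 19.4 to 24.0 FPKM. The part of transcript length in the spread of these genes was not tested. In EV 20C the class was lowest in replicate 1 too. There polq-1 was lowest in replicate 1 (24.4 FPKM) and atm-1 in replicate 2 (12.7 FPKM). The longest of the 9, atl-1, was highest in replicate 1, at 22.8 FPKM, against 16.4 and 20.4 FPKM in replicates 2 and 3. With the medians of 6 length classes removed from each library, an alternative added after the data were seen, the change of polq-1 under iff-1 RNAi was -0.08 (adjusted p = 0.253) and that against EV 20C was -0.19 (adjusted p = 0.0112). Under iff-1 RNAi, replicate 3 was the highest of its group for 7 of the 9 genes, against 46.9% of all tested genes.

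**Figure D3:**
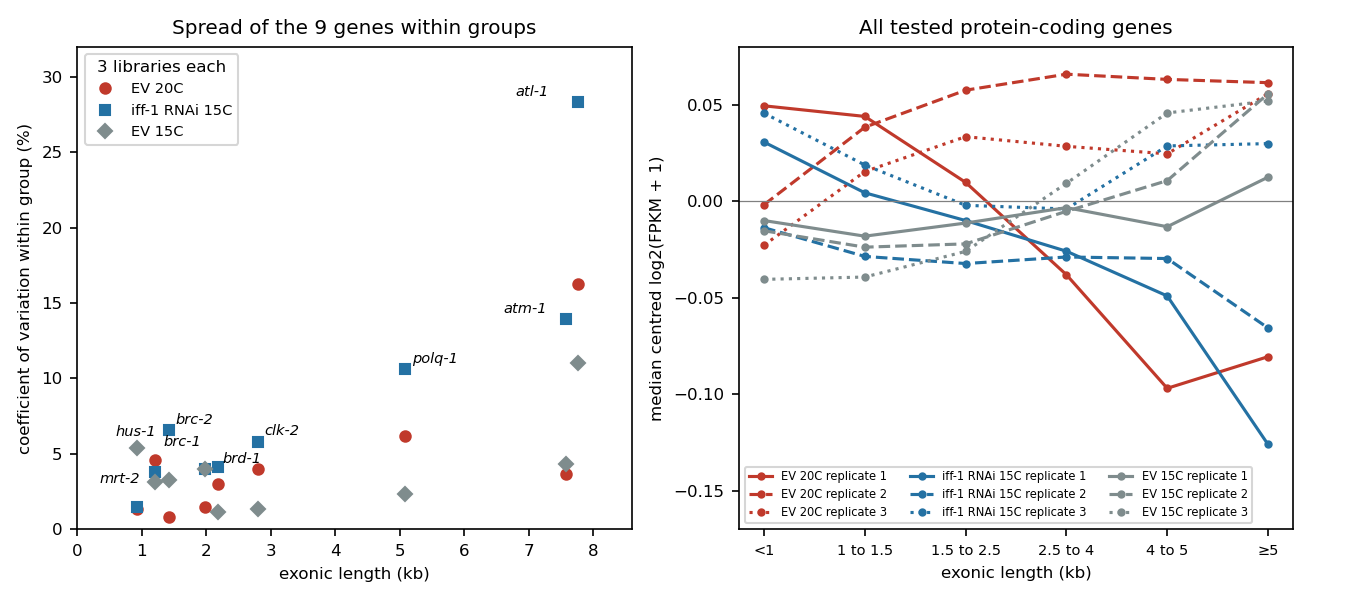
Left, coefficient of variation in percent over the 3 libraries of a group (y axis) against exonic length in kb (x axis) for the 9 genes. Right, median centred log2(FPKM + 1) (y axis) of tested protein-coding genes in 6 classes of exonic length (x axis), 1 line per library. The widest spread is that of atl-1 in iff-1 RNAi 15C (28.3%), and in the class of at least 5000 nt the lowest median is that of iff-1 RNAi 15C replicate 1 (-0.13).

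By position, 6 of the 9 genes lie on chromosome III, as do 1636 of all tested genes (19.1%). The genes brd-1 and brc-2 are 11063 nt apart on the same strand. Their changes at 20°C, 0.05 and 0.25, were not alike in size. Exons of clk-2 share 64 nt (2.28% of their length) with cls-1 on the opposite strand, and those of brc-2 share 38 nt (2.67%) with T07E3.4. These neighbours averaged 4.31 and 6.63 FPKM over all libraries, and without the strand setting of the counting their fragments cannot be separated there. The gene hus-1 begins 550 nt from msh-2, a mismatch repair gene on the opposite strand, which had 79.6, 79.0 and 79.0 FPKM in EV 20C, 80.6, 75.0 and 79.3 FPKM in iff-1 RNAi 15C, and 79.3, 74.7 and 76.9 FPKM in EV 15C. Its groups overlapped, unlike those of hus-1 against EV 15C. The translesion polymerase gene rev-3 lies 468 nt downstream of polq-1, and had 12.6, 13.4 and 12.0 FPKM in EV 20C, 13.3, 13.6 and 13.9 FPKM in iff-1 RNAi 15C, and 13.3, 12.5 and 12.7 FPKM in EV 15C. Both neighbours were picked for their position after values were seen.

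The rest of the repair machinery was read from 4 lists of 76 genes, of which 74 were in the table and 73 were tested. The CEP-1 target ced-13 averaged 0.112 FPKM and was not tested. At 20°C 15 of the 73 were higher and 3 lower than at 15°C, or 24.7% called against 28.0% of all tested genes, with a median log2 fold change of 0.04 against 0.03. This split depended on scaling, at 9 higher and 7 lower under median ratio scaling and 8 and 8 under quantile normalization. Under iff-1 RNAi 14 were higher and 6 lower than in EV 15C, or 27.4% against 31.0%, with a median of 0.04 against 0.01. Under quantile normalization 12 were higher and 8 lower, and with scaling that leaves out the 10 highest genes 11 and 2. Between iff-1 RNAi 15C and EV 20C 14 were higher and 15 lower, or 39.7% against 48.9%, with a median of -0.01 against -0.02. There, 22 were higher and 12 lower under quantile normalization, and 10 and 19 with scaling that leaves out the 10 highest genes.

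**Figure D4:**
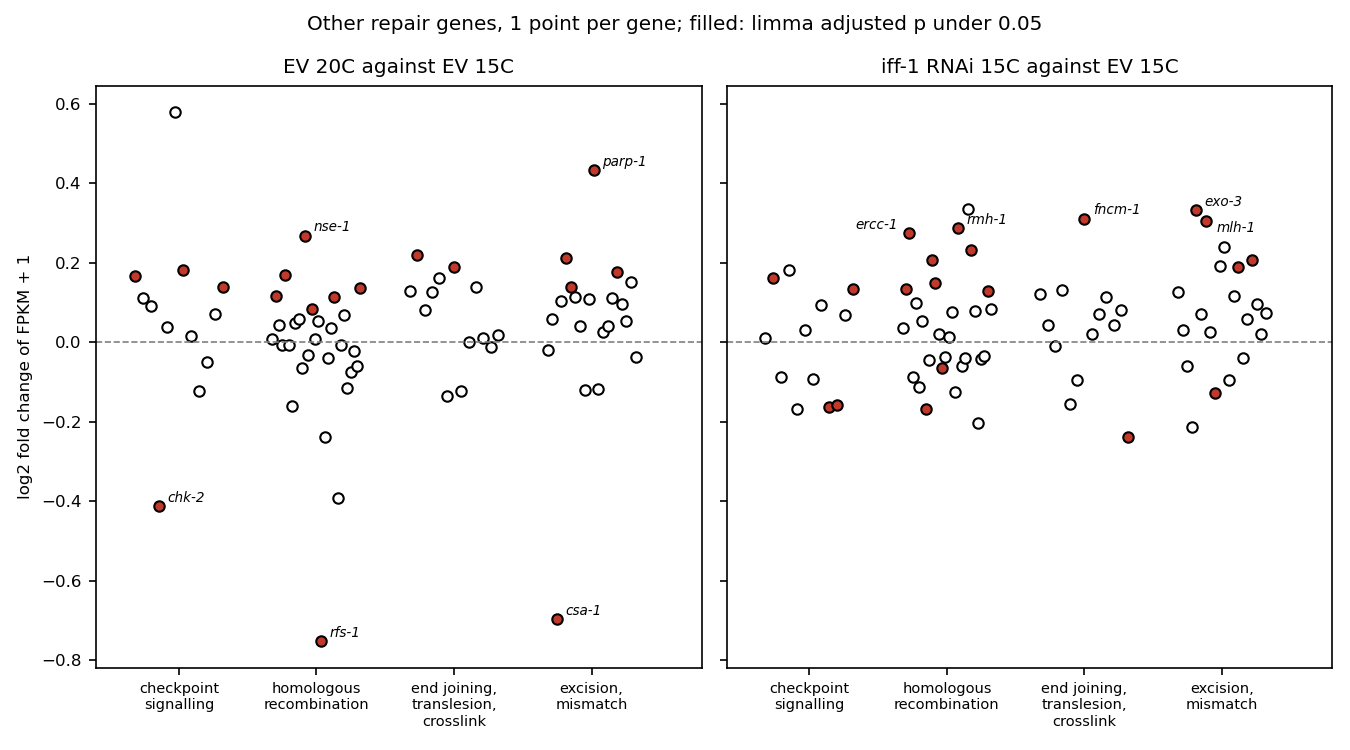
Limma log2 fold change of FPKM + 1 (y axis) of the 73 tested genes of 4 repair lists (x axis), for EV 20C against EV 15C (left) and iff-1 RNAi 15C against EV 15C (right). Each point is a gene, filled where the adjusted p was under 0.05 and named where a called change was over 0.25 in size. Of the called genes, rfs-1 (-0.75) and csa-1 (-0.70) fell furthest, both at 20°C.

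Among 12 other checkpoint genes, 3 were higher and 1 lower at 20°C, and 2 were higher and 2 lower under iff-1 RNAi. Called shares were 33.3% in each, against 28.0% and 31.0% of all tested genes. At 20°C hpr-17, the RAD17 clamp loader, had 67.2 ± 1.27 FPKM, against 59.2 ± 1.74 FPKM in EV 15C (log2 0.18, adjusted p = 0.0095). The meiotic kinase chk-2 fell to 8.83 ± 0.343 FPKM, against 12.1 ± 1.46 FPKM (log2 -0.41, adjusted p = 0.0104). Both calls held in all 20 alternatives. The cell cycle genes cdc-25.1 (0.17, adjusted p = 0.0153) and wee-1.3 (0.14, adjusted p = 0.0448) also rose. The cdc-25.1 call held in 16 of the 20 alternatives and was lost without EV 20C replicate 3 or EV 15C replicates 1 or 2 (adjusted p of up to 0.0584). The wee-1.3 call held in 7 and was lost without EV 20C replicates 2 or 3, iff-1 RNAi 15C replicate 2 or any EV 15C library (up to 0.139). Under iff-1 RNAi the fork protection gene tim-1 (-0.16, adjusted p = 0.0284) and the TopBP1 homologue mus-101 (-0.16, adjusted p = 0.0293) fell, and cep-1, the p53 homologue (0.16, adjusted p = 0.0459), and wee-1.3 (0.13, adjusted p = 0.0495) rose. These calls held in 13, 14, 7 and 4 of the 20 alternatives. Those of tim-1 and mus-101 were lost without iff-1 RNAi 15C replicates 1 or 2 or any EV 15C library (adjusted p of up to 0.0831 and 0.0961). Those of cep-1 and wee-1.3 were lost without EV 20C replicate 3, iff-1 RNAi 15C replicates 1 or 2 or any EV 15C library (up to 0.134 and 0.151), cep-1 also without iff-1 RNAi 15C replicate 3 and wee-1.3 without EV 20C replicate 2. Between iff-1 RNAi 15C and EV 20C, 1 checkpoint gene was higher, chk-2 (0.59, adjusted p = 0.000839), and 5 were lower, including hpr-17 (-0.27, adjusted p = 0.00061).

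The gene egl-1, a cell death gene that CEP-1 switches on in the damaged germ line, was looked at after values were seen. It had 5.63, 4.74 and 3.99 FPKM in EV 20C, 2.46, 3.30 and 3.09 FPKM in iff-1 RNAi 15C, and 4.04, 2.47 and 2.26 FPKM in EV 15C. The EV 20C libraries were high except that replicate 3 was below EV 15C replicate 1. The change at 20°C was 0.58 (adjusted p = 0.0510), and it passed without EV 15C replicate 1 (log2 0.77, adjusted p = 0.0196) and with scaling that leaves out the 10 highest genes (adjusted p = 0.0425). The change between iff-1 RNAi 15C and EV 20C was -0.55 (adjusted p = 0.0402), a call that held in 11 of the 19 alternatives that kept egl-1, whose mean is under 5 FPKM. It was lost without EV 20C replicates 1 or 2, any iff-1 RNAi 15C library or EV 15C replicate 2 (adjusted p of up to 0.126).

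Among 28 other genes of homologous recombination and resection, 6 were higher and 1 lower at 20°C, and 7 were higher and 2 lower under iff-1 RNAi. Called shares were 25.0% and 32.1%, near the 28.0% and 31.0% of all tested genes. At 20°C nse-1, a subunit of the SMC-5/6 complex, had 72.9 ± 1.02 FPKM, against 60.3 ± 0.212 FPKM in EV 15C (log2 0.27, adjusted p = 0.000739). The recombination gene rfs-1 fell to 10.3 ± 0.591 FPKM, against 18.1 ± 0.865 FPKM (log2 -0.75, adjusted p = 0.000832), while the Holliday junction resolvase gene gen-1 rose (0.17, adjusted p = 0.0095). These 3 calls held in all 20 alternatives. The single-strand binding subunit rpa-2 rose too (0.11, adjusted p = 0.0165), but not without EV 15C replicate 3 (adjusted p = 0.0536) or under median ratio scaling (0.0668). Under iff-1 RNAi the nuclease subunit ercc-1 had 129 ± 4.27 FPKM, against 106 ± 3.68 FPKM in EV 15C (log2 0.27, adjusted p = 0.00128). The helicase rtel-1 (0.23, adjusted p = 0.00387), nse-1 (0.15, adjusted p = 0.00418) and the nuclease mus-81 (0.21, adjusted p = 0.00545) also rose, and all 4 calls held in all 20 alternatives. Between iff-1 RNAi 15C and EV 20C, 8 were higher, including rfs-1 (0.83, adjusted p = 0.000127), and 5 were lower. The called share was 46.4%, against 48.9% of all tested genes.

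Among 13 other genes of end joining, translesion synthesis and crosslink repair, which work beside polq-1, 2 were higher and 0 lower at 20°C by limma, and at an unadjusted p under 0.05 there were 4 and 0. Over all 8572 tested genes 2326 were higher and 1249 lower at that unadjusted limma p. By adjusted p, 15.4% of the 13 were called at 20°C and 15.4% under iff-1 RNAi. Of all tested genes 28.0% and 31.0% were. The Ku subunit cku-80 had 62.0 ± 0.699 FPKM at 20°C, against 53.2 ± 2.20 FPKM in EV 15C (log2 0.22, adjusted p = 0.0115), a call that held in all 20 alternatives. Its partner cku-70 stood at 0.13 (adjusted p = 0.0740) and the polymerase polk-1 at 0.14 (adjusted p = 0.0564). Without iff-1 RNAi 15C replicate 1 cku-70 passed, and polk-1 passed without EV 20C replicate 1 or iff-1 RNAi 15C replicate 3. The Fanconi helicase fncm-1 rose at 20°C (0.19, adjusted p = 0.0254), a call that held in 16 of the 20 alternatives and was lost without EV 20C replicates 2 or 3 or EV 15C replicates 2 or 3 (adjusted p of up to 0.0940). Under iff-1 RNAi fncm-1 had 31.2 ± 1.27 FPKM, against 25.0 ± 0.889 FPKM in EV 15C (log2 0.31, adjusted p = 0.00296), and the ubiquitin-conjugating enzyme ubc-13 fell to 124 ± 2.93 FPKM, against 147 ± 3.27 FPKM (log2 -0.24, adjusted p = 0.00914). These were the 2 genes called and both held in all 20 alternatives, while cku-70 stood at 0.12 (adjusted p = 0.0864) and polk-1 at 0.11 (adjusted p = 0.102). Without EV 20C replicate 1 polk-1 passed here as well. In iff-1 RNAi 15C against EV 20C, 0 were higher and 3 lower by limma, and at an unadjusted p under 0.05 there were 2 and 3. Over all 8572 tested genes 2072 were higher and 2683 lower there at that unadjusted limma p. By adjusted p the called share there was 23.1%, against 48.9% of all tested genes.

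Among 20 genes of excision and mismatch repair, 4 were higher and 1 lower in each comparison with EV 15C. Between iff-1 RNAi 15C and EV 20C, 5 were higher and 2 lower. Called shares were 25.0% at 20°C and 25.0% under iff-1 RNAi, against 28.0% and 31.0% of all tested genes. Between iff-1 RNAi 15C and EV 20C the share was 35.0%, against 48.9%. At 20°C the ligase gene lig-1 had 135 ± 1.21 FPKM, against 123 ± 1.14 FPKM in EV 15C (log2 0.14, adjusted p = 0.00556). The transcription-coupled repair gene csa-1 fell to 3.54 ± 0.896 FPKM, against 6.28 ± 0.550 FPKM (log2 -0.70, adjusted p = 0.0121). Both calls held in all 20 alternatives. The gene parp-1, which encodes a poly(ADP-ribose) polymerase, rose (0.43, adjusted p = 0.0234), as did the AP endonuclease exo-3 (0.21, adjusted p = 0.0272). The parp-1 call held in 14 of the 20 alternatives and was lost without EV 20C replicates 1 or 3 or EV 15C replicates 1 or 3 (adjusted p of up to 0.0812), and the exo-3 call held in 12 and was lost without EV 20C replicate 1 or EV 15C replicates 1 or 3 (up to 0.0955). Under iff-1 RNAi the mismatch repair gene mlh-1 had 86.7 ± 4.49 FPKM, against 69.96 ± 2.37 FPKM in EV 15C (log2 0.30, adjusted p = 0.00211). The excision repair genes rad-23 (0.19, adjusted p = 0.00206) and xpb-1 (0.21, adjusted p = 0.00511) and exo-3 (0.33, adjusted p = 0.00374) rose as well, and all 4 calls held in all 20 alternatives.

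The tested genes most like each of the 9 were found by the root mean square difference of centred log2(FPKM + 1) over the 9 libraries, as a description. For atm-1 these were Y48E1B.3 (0.033) and Y53C12B.1 (0.038), and for atl-1 an unnamed gene, WBGene00016117 (0.106), and F54B3.1 (0.124). For hus-1 they were hxk-2 (0.024) and upp-1 (0.028), for mrt-2 W01A11.1 (0.025) and tpst-1 (0.027), and for clk-2 mans-1 (0.029) and hoe-1 (0.029). For brc-1 they were cids-1 (0.016) and edg-1 (0.026), for brd-1 F56C9.3 (0.022) and mmaa-1 (0.024), for brc-2 D2023.6 (0.030) and psr-1 (0.039), and for polq-1 fipp-1 (0.036) and hgrs-1 (0.043). The median difference over all tested genes was 0.157 to 0.282. None of the 9 had another of the 9 or a gene of the 4 repair lists among its 2 nearest. With only 2 of the 8572 tested genes taken for each, this does not show whether repair genes vary together.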

How the data were processed

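The authors deposited 1 table of FPKM values by gene and library. Per the labels' protocols, poly-A RNA was made into libraries with a stranded kit and sequenced as paired 75-nt reads. The submitters' processing notes name CASAVA and Cufflinks, with neither version nor role. As the aligner, build, annotation release and strand setting were not given in the sources used here, coordinates are those of WBcel235 (Ensembl 115). Depth was estimated from low values of genes with a single transcript and over 1000 nt of exon. It is the inverse of the median of FPKM times length in kb, over values between 0.015 and 0.045. This fixed window limits the depths that can be found, so the estimate is rough. Counts were not recovered, so no count model was used, and the counting errors given leave out the error of the depth estimate.

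Genes with a mean of at least 1 FPKM were tested with limma 3.58.1 (R 4.3.3) on log2(FPKM + 1), which understates changes of low genes, in 1 fit of all 9 libraries with 6 residual degrees of freedom and a variance trend. Tests were two-sided, with Benjamini-Hochberg adjustment over all 8572 genes. Only the limma fit was tested on simulated data, with independent noise and a few genes changed upward. Depth estimates, ratios, scaling and length classes were not part of that test. The 9 genes, the gene lists and the tests were chosen with earlier results of these data known. Named genes beyond the 9 are iff-1, up to 4 per list and comparison with EV 15C by smallest adjusted p, and the 2 nearest in pattern to each of the 9. Other names were chosen after their values were seen, and 1 gene of the lists is counted but not reported here. Of 20 alternatives 1 was added after seeing the data.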

Additional observations from a re-analysis of the deposited data

How the results depend on the processing

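Of the 9 calls among the 9 genes, 4 held in all 20 alternatives: brc-2 for EV 20C against EV 15C, mrt-2 for iff-1 RNAi 15C against EV 15C, and both for iff-1 RNAi 15C against EV 20C. No called change reversed its sign. Under iff-1 RNAi against EV 15C, 2 of the 9 genes were called, and 1 with no filter on low values, median ratio scaling, scaling without the 10 highest genes, the replicate block, the 2 groups alone, no variance trend, or length medians removed. Against EV 20C 5 were called, and 3 under quantile normalization or with the 2 groups alone. For the other repair genes under iff-1 RNAi against EV 15C, 20 were called, and 13 with scaling without the 10 highest genes.

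Leaving out 1 library gave 1 to 4 calls among the 9 genes for EV 20C against EV 15C (2 with all libraries), 1 to 2 for iff-1 RNAi 15C against EV 15C (2) and 2 to 5 for iff-1 RNAi 15C against EV 20C (5). The first count was 1 without EV 20C replicate 3 or EV 15C replicates 2 or 3, and 4 without iff-1 RNAi 15C replicate 3. The next was 1 without EV 20C replicate 3, iff-1 RNAi 15C replicates 1 or 2 or EV 15C replicates 2 or 3, and the last 2 without EV 20C replicate 3 and 3 without iff-1 RNAi 15C replicates 1 or 2. The other repair genes gave 10 to 21 (18), 12 to 21 (20) and 21 to 32 (29) calls in the same order of comparisons, the first with counts of 10 when EV 20C replicate 3 and 11 when EV 15C replicate 2 was left out, and the next with 12, 13 and 13 when EV 15C replicates 1, 2 and 3 were. All tested genes gave 1514 to 2518 (2401), 1798 to 3076 (2659) and 3389 to 4118 (4193), the first with counts of 1548 when EV 20C replicate 3 was left out, and 1534 and 1514 when EV 15C replicates 1 and 2 were.

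Scaling changed the split of calls over all tested genes. At 20°C 69.0% of calls were higher, 54.1% under median ratio scaling, 55.3% under quantile normalization and 77.9% without the 10 highest genes. Same-numbered libraries did not deviate together more than other pairs (r of -0.19 to 0.0817 across genes, other pairs -0.14 to 0.21). Deviations were taken from group means, so this check shows no strong shared deviation but cannot exclude paired preparation. With the replicate block 2, 1 and 5 of the 9 genes were called in the 3 comparisons, and 2158, 2425 and 4051 of all tested genes. Under the block cku-70 passed at 20°C (adjusted p = 0.0250) and under iff-1 RNAi (0.0269) against EV 15C, and polk-1 passed at 20°C (0.0478). Depth is itself an estimate, with counting errors of 1.10% to 2.91% for the 9 genes.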
